A study of Xenopus laevis with 6 samples.

Results

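Animal caps expressing Sox17beta were compared with uninjected animal caps of Xenopus laevis, and 295 of 15491 probe sets differed at least 2-fold in the same direction in both replicate pairs, which is 1.9% of those measured. Of these, 98 were higher and 197 were lower in Sox17beta caps. A replicate pair is the Sox17beta array and the uninjected array that carry the same replicate number in the labels, so the measured values themselves chose these probe sets and their number is a description, not a test. A single gene symbol was attached to 192 of them, 8 had several symbols and 95 had none. The last 2 kinds are left unnamed here, apart from the probe set of cpeb1. This frog carries a duplicated genome, and the symbol endings .L and .S name the copy of a gene on the longer or the shorter chromosome of a pair.

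The animal cap is the ectoderm cut from the top of the embryo. All caps were at gastrula stage 10.5 and of mixed gender, and total RNA was measured on Affymetrix arrays. The groups were 2 arrays of caps labelled as Sox17 expressing (Sox17beta in the series' design text), 2 arrays of Mixer expressing caps and 2 arrays of uninjected caps. The sources used here do not give the amount injected, the construct, the number of caps pooled or the clutches, and the controls were uninjected, so an effect of injection as such cannot be told apart from one of Sox17beta. Nothing in the labels says that replicates came from separate clutches, so the spread behind each p-value comes from these arrays and may be technical. In the main fit below it is what remains after differences shared by same-numbered arrays are taken out.

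Sox17beta is a SoxF transcription factor with an HMG-box DNA-binding domain, normally made in the vegetal cells that become endoderm, where it acts downstream of Nodal signalling. Left alone, the animal cap becomes epidermis under the influence of BMP ligands. BMP inhibitors turn it towards neural tissue and cement gland, and Nodal or activin signals turn it towards mesoderm and endoderm.

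The uninjected caps carried the markers of their tissue. Of 17 epidermal marker probe sets, 15 lay above the highest of 27 Bacillus subtilis control probe sets on both uninjected arrays. The same 17 had medians of 6.81 and 6.2 on the log2 scale on the Sox17beta arrays, against 8.43 and 9.43 on the uninjected arrays, and 10 were above the controls on both Sox17beta arrays. Summed over the list the log2 values were 118.63 and 109.64 on the Sox17beta arrays, against 141.98 and 154.42 on the uninjected arrays. Of 6 mesodermal marker probe sets, 0 on both Sox17beta arrays and 1 on both uninjected arrays (myod1.L) exceeded the controls, and none of the 6 was called. Their log2 values summed to 31.31 and 29.63 on the Sox17beta arrays, against 29.64 and 30.29 on the uninjected arrays. Of 10 endodermal marker probe sets, 5 exceeded the controls on both Sox17beta arrays and 3 on both uninjected arrays, and 2 were called higher. Of 5 cement gland marker probe sets, 1 exceeded the controls on both Sox17beta arrays and 3 on both uninjected arrays, and 2 were called lower. In whole tissue, fewer cells of a type and less RNA per cell cannot be told apart.

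The comparison was tested across all 15491 probe sets with limma, using the replicate number as a block and all 6 arrays to estimate the spread. At an adjusted p under 0.05 it called 844 probe sets, 5.45% of those tested, of which 292 were higher (1.88%) and 552 lower (3.56%) in Sox17beta caps. Below, "rose" and "fell" refer to this fit. It called 97 of the 98 higher and 196 of the 197 lower probe sets chosen by fold, and nothing is read from this, since the same contrast chose them. The 2 left out were gata6.L and an unnamed lower probe set (adjusted p = 0.0507). The calls depend strongly on the model. Without the block limma called 3 probe sets (0.0194%), all 3 higher and all 3 among the 295, with 969 at an unadjusted p under 0.05 where 775 would be met by chance. With the block but only the 4 arrays of this comparison it called 0, with 2029 at an unadjusted p under 0.05. Leaving out either Mixer or either uninjected array also gave 0 calls, with 1659 to 2029 at an unadjusted p under 0.05. Without Sox17beta replicate 2 there were 3 calls, and without Sox17beta replicate 1 there were 582.

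The size of the response differed between the pairs. Among the 98 higher probe sets the median log2 difference was 1.33 in replicate 1 and 1.98 in replicate 2, and 85 of them differed more in replicate 2. Among the 197 lower probe sets the medians were -1.33 and -2.05, and 184 differed more in replicate 2. In replicate 1 alone, 109 probe sets were at least 2-fold higher and 227 lower, and in replicate 2 alone 332 were higher and 416 lower, so 98 of the 109 and 197 of the 227 in replicate 1 met the limit in replicate 2 as well. No probe set was 2-fold higher in one pair and 2-fold lower in the other. Sox17beta replicate 1 had the highest control signal, with a control median of 3.63 against 3.36 to 3.49 on the other arrays. It also had the smallest share of probe sets above its controls, 62.4% against 65% to 66.3%. The part of this array in the smaller differences of replicate 1 was not tested.

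**Figure D1:**
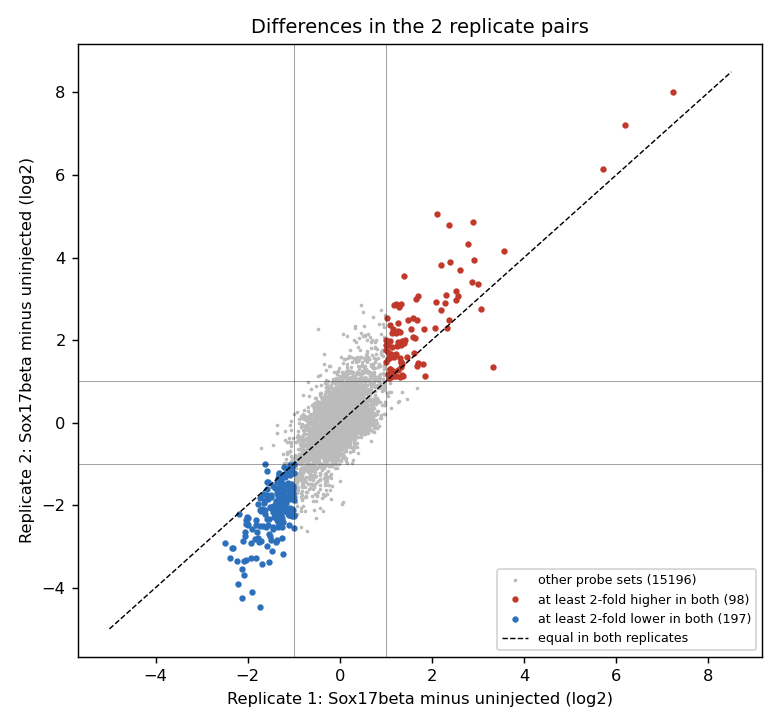
Each point is a probe set, with the log2 difference between Sox17beta and uninjected caps in replicate pair 1 on the x axis and in pair 2 on the y axis. The 98 higher (red) and 197 lower (blue) probe sets lie mostly farther from 0 in pair 2 than the dashed line of equal differences.

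The injected gene was read by both sox17b.1.S probe sets. The gene-specific one read 13.11 and 13.9 on the Sox17beta arrays, against 6.91 and 6.7 on the uninjected arrays. The one shared by similar transcripts read 12.49 and 13.11 in Sox17beta caps, against 5.25 and 5.11 in uninjected caps. These probe sets see injected and embryonic RNA together, and with differences of 6.7 and 7.62 on the log2 scale they check the labels. In Mixer caps the same 2 probe sets read 9.63 and 9.33, and 9.28 and 9.35, and so were also higher there than in uninjected caps, by 2.67 (adjusted p = 0.0111) and 4.13 (0.000331). The related SoxF gene sox17a, which marks embryonic endoderm, was not called through either copy, with differences of 0.14 (sox17a.S, limma adjusted p = 0.682) and 0.16 (sox17a.L, adjusted p = 0.839).

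The genes that met the 2-fold rule are described below in groups given after they were chosen, so a group's direction and its calls were fixed by that choice and say nothing of its pathway. Whole lists follow further on. Transcription factors of endoderm, mesoderm and the organizer comprised 10 of the higher probe sets, of 8 genes, with differences of 1.38 to 3.14 on the log2 scale. The organizer homeobox gene gsc.S (goosecoid) read 6.69 and 6.37 in Sox17beta caps, against 3.62 and 3.62 in uninjected caps (difference 2.91, limma adjusted p = 0.000437). The T-box gene eomes.L, a regulator of mesendoderm, read 7.93 and 8.21 in Sox17beta caps, against 5.41 and 5.23 in uninjected caps (difference 2.75, adjusted p = 0.000852). Both genes lay within the range of the control probe sets in uninjected caps and above it on both Sox17beta arrays.

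The zinc-finger gene gata4.S, of endoderm and heart, read 6.41 and 7.48 in Sox17beta caps, against 3.85 and 4.41 in uninjected caps (difference 2.81, adjusted p = 0.000885). The forkhead gene foxa1.S was already present in uninjected caps, at 6.62 and 6.42, and read 8.99 and 8.9 in Sox17beta caps, which is 5.37-fold higher (adjusted p = 0.00218). Another forkhead gene, foxa4.S, of notochord and organizer, read 4.47 and 4.5 in Sox17beta caps, against 2.78 and 3.06 in uninjected caps. All 4 of these foxa4.S values lie within the control range, so its call (difference 1.56, adjusted p = 0.00252) rests on dim signal.

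The anterior homeobox gene otx2, needed for head development, was read by 3 probe sets that all rose. The otx2.S probe set read 8.02 and 9.46 in Sox17beta caps, against 6.36 and 6.46 in uninjected caps. Those of otx2.L rose by 3.13 and 2.46. The LIM homeobox gene lhx1.L read 4.77 and 5.44 in Sox17beta caps, against 3.76 and 3.69 in uninjected caps, again below the highest controls on all 4 arrays. The GATA factor gata6.L read 6.89 and 7.12 in Sox17beta caps, against 5.55 and 5.69 in uninjected caps, and was the named probe set that met the 2-fold rule without being called (adjusted p = 0.222). On the Mixer arrays it read 6.72 and 9.22, and these arrays enter the estimate of its spread.

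**Figure D2:**
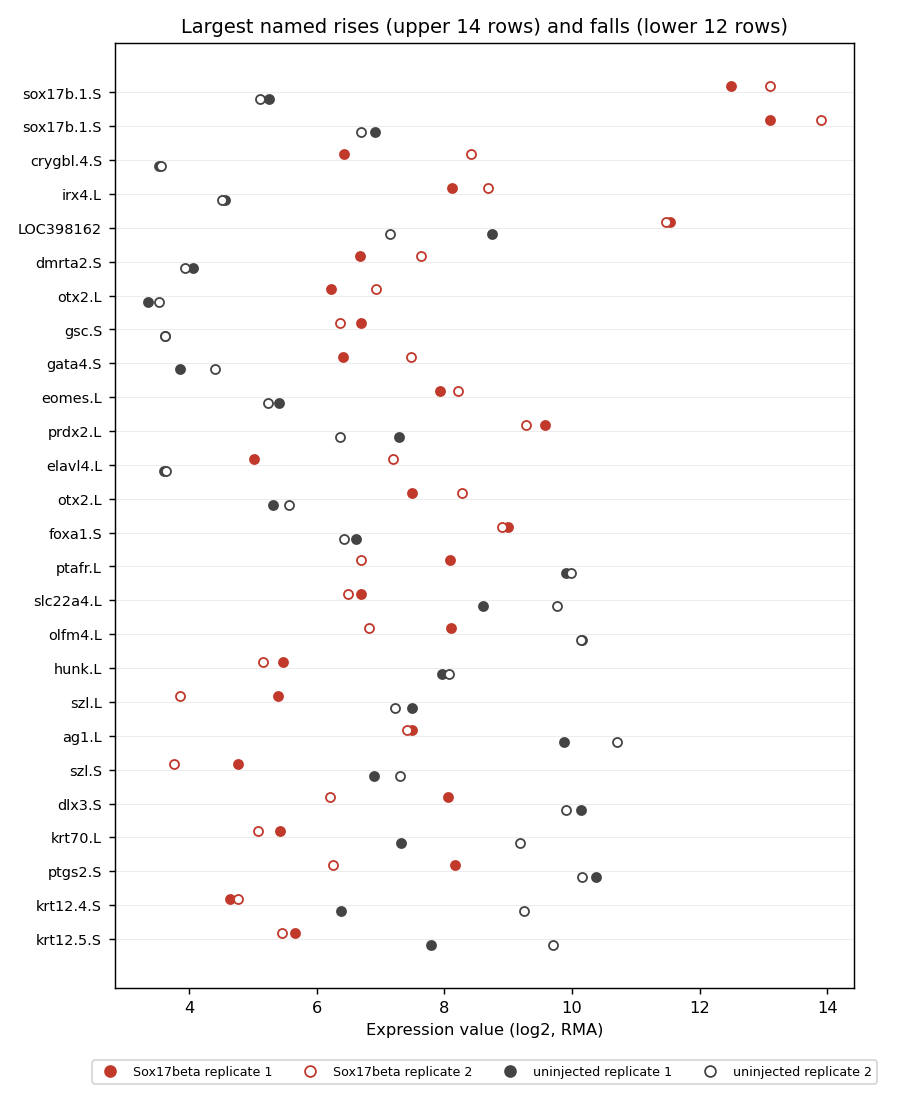
Log2 expression values on the Sox17beta arrays (red) and uninjected arrays (grey) for the 14 largest rises and 12 largest falls among probe sets with a single symbol, filled for replicate 1 and open for replicate 2. In each row both Sox17beta values lie on the same side of both uninjected values, and several falls, such as krt12.4.S, spread more between the uninjected arrays than between the Sox17beta arrays.

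Other patterning transcription factors were split, with 11 genes higher and 8 lower. Highest of these stood irx4.L, an Iroquois homeobox gene, which read 8.12 and 8.68 in Sox17beta caps, against 4.56 and 4.52 in uninjected caps, the largest difference of a named transcription factor apart from sox17b.1.S (3.86, limma adjusted p = 0.000695). The DM-domain gene dmrta2.S, of anterior neural plate and placodes, read 6.67 and 7.64 in Sox17beta caps, against 4.06 and 3.93 in uninjected caps (3.16, adjusted p = 0.00311). Both genes were within the control range in uninjected caps.

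Further rises in that group were those of the Hox genes hoxa2.S (1.74) and hoxa3.S (1.70), which pattern the hindbrain. The forkhead genes foxd1.L (1.66), foxd2.S (1.71) and foxd3.S (1.49) rose as well, foxd3 being a regulator of neural crest and pluripotent ectoderm. So did ebf2.S (1.65), of early neurons, the nuclear receptor gene nr2f2.L (1.54), and the NK homeobox genes nkx2-2.S (1.25) and nkx3-3.S (1.21). The adjusted p of these 9 probe sets lay between 0.00453 (nkx3-3.S) and 0.0266 (hoxa3.S). In RefSeq gene order hoxa2.S and hoxa3.S are direct neighbours. The hoxa2.S values lay within the control range on all 4 arrays. Those of foxd1.L and foxd2.S lay within it on the uninjected arrays and on Sox17beta replicate 1 (5.53 and 5.72). The foxd3.S values did so on the uninjected arrays and on Sox17beta replicate 2 (5.27). A second foxd1.L probe set rose by 0.5, and foxd3.L differed by 0.325 and was not called (limma adjusted p = 0.177).

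Genes grouped by name as neuronal or lens genes were also among the rises. The gamma crystallin gene crygbl.4.S, encoding a structural protein of the lens, was read by 2 probe sets. The first read 6.42 and 8.42 in Sox17beta caps, against 3.52 and 3.56 in uninjected caps, and the second read 8.77 and 9.3 in Sox17beta caps, against 6.45 and 7 in uninjected caps. The first rose by 3.88 (adjusted p = 0.00579), with 2.9 in replicate 1 and 4.86 in replicate 2, and the second by 2.31 (0.00218).

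elavl4.L, which encodes an RNA-binding protein of neurons, read 5.01 and 7.19 in Sox17beta caps, against 3.61 and 3.63 in uninjected caps (2.48, adjusted p = 0.0315). Its Sox17beta replicate 1 value lies within the control range, and its replicate 2 value does not. The vesicular GABA transporter gene slc32a1.S rose by 1.91, and its Sox17beta replicate 1 value (5.06) also lies within the control range. The microtubule regulator gene stmn1.S, already bright in uninjected caps at 9.84 and 8.84, rose by 1.78. Its difference between Sox17beta and Mixer caps was 0.805 and was not called (limma adjusted p = 0.32). The gene nkain1.L, whose product binds the sodium pump, rose by 1.4. Neural plate markers were split. The 3 otx2 probe sets rose, sox3.S fell by 1.11, and others were not called: sox2.L differed by -0.02 and -0.80 through its probe sets, zic1.S by 0.49 and -0.05 and ncam1.L by 0.

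Signalling genes that rose were the activin and BMP antagonist fst.L (follistatin), at 6.17 and 6.57 in Sox17beta caps, against 4.87 and 5.01 in uninjected caps (1.43, adjusted p = 0.00352). The gene of another BMP modulator, the cysteine-rich kcp.L, rose by 1.17 (adjusted p = 0.00357). The apelin receptor gene aplnr.L, active in migrating mesendoderm, read 9.34 and 8.44 in Sox17beta caps, against 7.87 and 5.95 in uninjected caps (1.98, adjusted p = 0.0112), and its uninjected values differed from each other by nearly as much. The chemokine receptor cxcr4.S read 9.11 and 9.22 in Sox17beta caps, against 7.74 and 7.29 in uninjected caps (1.65, adjusted p = 0.00363). The leptin receptor overlapping transcript gene leprot.L rose by 1.26.

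The remaining named rises came from housekeeping and regulatory classes. The peroxiredoxin gene prdx2.L, of peroxide removal, read 9.57 and 9.28 in Sox17beta caps, against 7.29 and 6.37 in uninjected caps (6.04-fold, adjusted p = 0.00182). The histone chaperone gene dnajc9.L read 9.37 and 8.45 in Sox17beta caps, against 7.3 and 6.15 in uninjected caps (2.18, adjusted p = 0.000852). The placeholder gene LOC398162 reached 11.53 and 11.47 in Sox17beta caps, against 8.75 and 7.15 in uninjected caps. In all 3 the uninjected arrays differed clearly from each other, with replicate 1 the higher.

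Both copies of the antiproliferative, deadenylase-recruiting gene btg4 rose (btg4.S by 2.06 and btg4.L by 1.52), as did the anaphase-promoting complex inhibitor fbxo43.L (1.21). These 3 probe sets made up the group of oocyte and meiosis regulators. In Mixer caps they were also higher than in uninjected caps, by 1.22 (btg4.S, limma adjusted p = 0.0508), 1.075 (btg4.L, 0.0203) and 0.98 (fbxo43.L, 0.0302). None of the 3 was called between Sox17beta and Mixer caps. The list of oocyte, vegetal and germ plasm genes does not hold them and takes in only probe sets with a single symbol. In that list 0 of 43 probe sets were 2-fold higher and 2 were lower (sox3.S and pou5f3.1.L), and 1 rose (dnd1.L, 1.23). The probe set of cpeb1.S and cpeb1.L, in no list, read 9.22 and 10.12 in Sox17beta caps, against 6.85 and 5.32 in uninjected caps. It rose by 3.585 (limma adjusted p = 0.00904). In Mixer caps it was 2.16 higher than in uninjected caps, which was not called (adjusted p = 0.104). The interferon regulatory factor gene irf1.L read 8.71 and 6.66 in Sox17beta caps, against 5.38 and 5.31 in uninjected caps, and differed more in replicate 1 (3.33) than in replicate 2 (1.35). The ETS factor elf2.L rose by 2.08, the phosphatidylserine decarboxylase-like pisd-like.2.L by 2.38, the snRNP assembly gene clns1a.S by 2.1 and the fatty acid elongase elovl2.L by 1.66. The membrane ubiquitin ligase marchf8.L rose through both of its members by 1.76 and 1.71, and a further 6 genes of ubiquitination and trafficking rose by 1.16 to 1.35. The purine salvage gene hprt1.L, often used as a loading gene, rose by 1.38 (adjusted p = 0.00416).

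**Figure D3:**
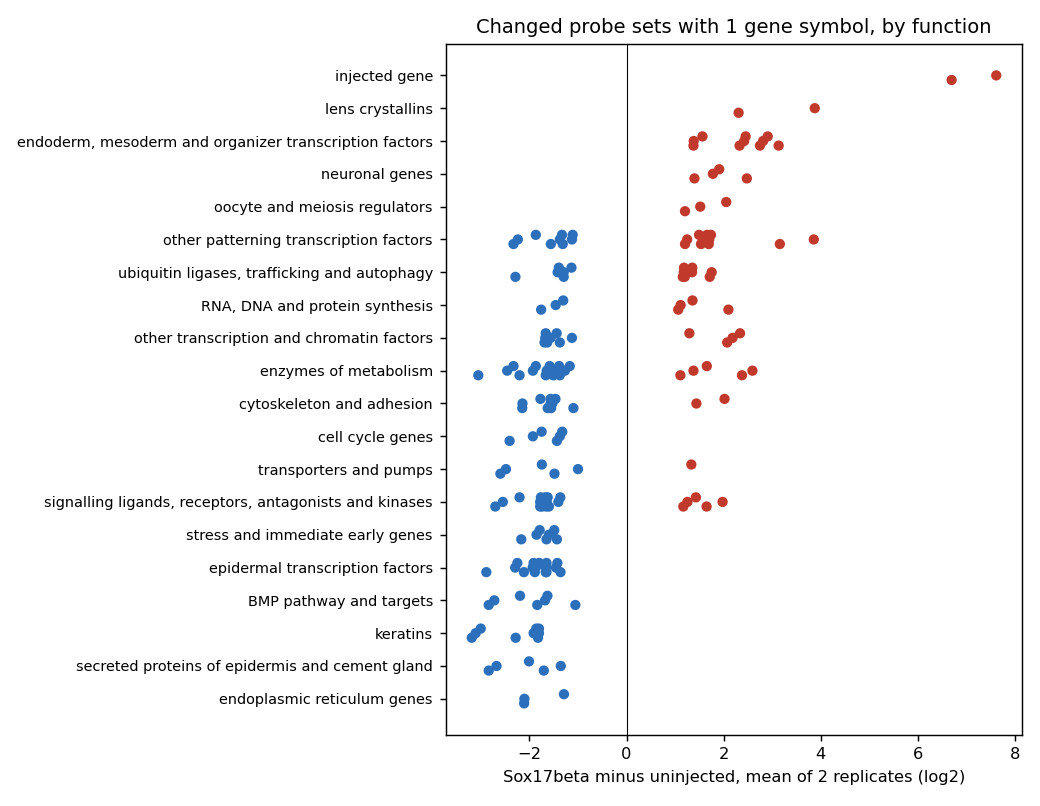
Each point is a probe set with a single gene symbol that met the 2-fold rule in both replicates, placed by its mean log2 difference (Sox17beta minus uninjected) and by a function group given from the gene's name after the probe sets were known. Keratins, epidermal transcription factors, BMP genes, secreted epidermal proteins, stress genes, endoplasmic reticulum genes and cell cycle genes lie on the lower side alone among these chosen probe sets.

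Keratins, the intermediate filaments of epithelia, held 3 of the 4 falls of 8-fold or more by the mean. There were 9 keratin probe sets, of 4 genes, among the lower ones, with falls of 1.80 to 3.19 on the log2 scale. Epidermal krt12.5.S read 5.66 and 5.45 in Sox17beta caps, against 7.79 and 9.7 in uninjected caps (-3.19, limma adjusted p = 0.0196). Its neighbour in RefSeq gene order, krt12.4.S, read 4.64 and 4.77 in Sox17beta caps, against 6.38 and 9.25 in uninjected caps (-3.11, adjusted p = 0.0481). On the Sox17beta arrays both fell to within the control range, and their uninjected values were far apart.

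The 4 probe sets of krt70.S agreed more closely, with differences of -1.80 to -1.92. The brightest read 10.98 and 9.98 in Sox17beta caps, against 12.22 and 12.39 in uninjected caps. krt70.L fell by 3, krt12.4.L by 2.29 and krt7.L by 1.80.

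Regulators of epidermis, nearly all of them transcription factors, made up 16 of the lower probe sets, of 12 genes, with falls of 1.36 to 2.89. Other epidermal regulators were not called, among them tp63.L (0.10, adjusted p = 0.701), whose values lay within the control range, and foxi1.L (-1.41, adjusted p = 0.101). The homeobox gene dlx3.S, needed for epidermal differentiation, read 8.06 and 6.2 in Sox17beta caps, against 10.14 and 9.9 in uninjected caps (-2.89, adjusted p = 0.00919). Its other copy dlx3.L fell by 2.29 and the related dlx5.L by 1.66. The AP-2 factor tfap2a.L, of epidermis and neural crest, read 8.31 and 7.83 in Sox17beta caps, against 10.04 and 10.33 in uninjected caps (4.33-fold lower, adjusted p = 0.00539).

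The GATA factor gata2.L, a ventral and epidermal gene, fell by 1.94 and 1.87 through its 2 probe sets (adjusted p = 0.00311 and 0.00252). The grainyhead factors of epidermal barrier genes fell too, grhl3.L by 1.65 and grhl1.L by 1.43. Both copies of foxi4.2, a forkhead gene of the ectoderm, fell, foxi4.2.S by 1.89 and foxi4.2.L by 1.67, although a second foxi4.2.L probe set differed by 0. The Krüppel-like genes of the klf17 type fell by 2.25 (klf17.1.S), 1.92 and 1.80 (klf17.L). The BMP-induced homeobox gene msx1.L fell by 1.65 and the zinc-finger repressor gene prdm1.S by 1.36.

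Genes of the BMP pathway and its targets gave 7 of the lower probe sets, of 5 genes. The ligand gene bmp7.2.L read 10.31 and 9.66 in Sox17beta caps, against 11.63 and 12.02 in uninjected caps (-1.84, adjusted p = 0.0107). The pseudoreceptor gene bambi.L, a feedback inhibitor, read 7.83 and 7.33 in Sox17beta caps, against 9.87 and 9.68 in uninjected caps (-2.19, adjusted p = 0.00218). The secreted protease inhibitor gene szl (sizzled) fell through both copies, szl.S to 4.77 and 3.76 in Sox17beta caps, against 6.9 and 7.31 in uninjected caps, and szl.L by 2.73.

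Among BMP targets, both copies of the HLH inhibitor gene id2 fell (id2.L by 1.68 and id2.S by 1.63), and the ventral homeobox gene ventx1.1.L fell by 1.05. A second ventx1.1.L probe set differed by -0.03 and was not called.

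Several genes of secreted proteins of the outer ectoderm fell. The cement gland gene ag1, a disulfide isomerase-like secreted protein, fell through both copies. ag1.L read 7.49 and 7.41 in Sox17beta caps, against 9.88 and 10.7 in uninjected caps (-2.84, adjusted p = 0.00462), and ag1.S fell by 1.71. The epidermal serine protease gene xepsin.L read 6.43 and 6.37 in Sox17beta caps, against 7.88 and 8.94 in uninjected caps (-2.01, adjusted p = 0.00667). The olfactomedin olfm4.L fell by 2.68 and the complement gene cfb.L by 1.36.

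Patterning transcription factors that fell included the LIM homeobox gene lhx5.S, of forebrain, which fell through both of its probe sets, by 2.33 for the brighter. The Hes repressors hes4.L (-1.87) and hes7.1.L (-1.12) fell, as did the homeobox gene meis3.S (-1.31), the LIM-only gene lmo4.2.S (-1.33) and the SoxF gene sox18.S (-1.38). The pluripotency POU gene pou5f3.1.L read 8.09 and 9.27 in Sox17beta caps, against 9.38 and 11.1 in uninjected caps (-1.56, adjusted p = 0.0299). The Sox17beta value of replicate 2 lay close to the uninjected value of replicate 1, so only the pairing separates them clearly. The early ectodermal and neural gene sox3.S read 9.22 and 8.46 in Sox17beta caps, against 10.22 and 9.68 in uninjected caps (-1.11, adjusted p = 0.00666).

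Cell cycle genes gave 6 of the lower probe sets, of 5 genes. In the whole list of 223 cell cycle and replication probe sets, 4 were 2-fold lower (1.79%) and 0 higher. The shares over all probe sets were 1.27% and 0.633%. In that list 12 fell and 9 rose, where 3.56% of all probe sets fell and 1.88% rose, and the list median was -0.01. The G1/S cyclin gene ccne2.L read 6.43 and 5.95 in Sox17beta caps, against 8.49 and 8.71 in uninjected caps (5.31-fold lower, limma adjusted p = 0.00266). Both copies of the G1 cyclin gene ccnd1 fell, ccnd1.L by 1.75 and ccnd1.S by 1.44. The growth factor-responsive gene myc.L fell by 1.93 through the probe set that met the rule and by 0.86 through its other. The MYC antagonist gene mxi1.L fell by 1.33 and the repressor of S-phase genes e2f7.L by 1.38. Among the rises of that list, ccnb1.S (1.51), e2f1.L (1.18), ccna1.S (1.11) and orc4.L (1.04) did not meet the 2-fold rule in both pairs.

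Enzymes of metabolism gave 15 of the lower and 5 of the higher probe sets. The list of 244 metabolic enzyme probe sets holds only some of these. It had 3 that were 2-fold lower (1.23%) and 4 higher (1.64%), with 8 that fell and 9 that rose. Of all probe sets, 1.27% were 2-fold lower and 0.633% higher, 3.56% fell and 1.88% rose. The prostaglandin synthase gene ptgs2.S read 8.17 and 6.25 in Sox17beta caps, against 10.37 and 10.16 in uninjected caps (-3.06, adjusted p = 0.00694). In arginine and polyamine metabolism, arginase arg1.L fell by 2.33, argininosuccinate lyase asl.L by 1.93 and the antizyme inhibitor azin2.S by 2.21. azin2.S was among the most even falls, at 8.94 and 8.95 in Sox17beta caps, against 11.13 and 11.17 in uninjected caps (adjusted p = 0.00125). The heparan sulfotransferase gene hs3st1.L fell by 2.46, the hexosamine pathway genes gfpt2.L by 1.87 and 1.51 and gfpt1.S by 1.38, the retinol dehydrogenase gene rdh10.L by 1.59 and the hyaluronan synthase gene has1.S by 1.17.

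Transporters and pumps gave 5 of the lower probe sets and 1 of the higher. In the list of 236 solute carrier and pump probe sets, 5 were 2-fold lower (2.12%) and 2 higher (0.847%). The shares over all probe sets were 1.27% and 0.633%. Of the list 15 fell and 6 rose, where 3.56% of all probe sets fell and 1.88% rose. The organic cation transporter gene slc22a4.L read 6.69 and 6.49 in Sox17beta caps, against 8.61 and 9.77 in uninjected caps (-2.6, adjusted p = 0.012). It lies next to irf1.L in RefSeq gene order, which rose by 2.34. Falls were also seen for the glucose transporter gene slc2a2.L (-2.49), for slc38a2.L (-1.75) and slc7a3.L (-1), which carry amino acids, and for the sodium pump subunit gene atp1b2.L (-1.49). The monocarboxylate transporter gene slc5a8.1.L rose by 1.33, with all 4 values within the control range.

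Cell surface and cytoskeletal genes were lower for 10 of 12 probe sets. In the list of 185 adhesion, junction and matrix probe sets, 5 were 2-fold lower (2.7%, against 1.27% of all probe sets) and 0 higher. In that list 11 fell and 0 rose, where 3.56% of all probe sets fell and 1.88% rose, and the list median was 0.095. The tight junction gene cldn4.L read 9.44 and 9.01 in Sox17beta caps, against 10.84 and 11.16 in uninjected caps (-1.77, adjusted p = 0.0072). The dynein light chain gene dynll1.S read 5.02 and 4.8 in Sox17beta caps, against 7.01 and 7.1 in uninjected caps, and so lay within the control range in Sox17beta caps alone. A second dynll1.S probe set differed by -0.675, which was called but did not meet the 2-fold rule.

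Further falls there were those of the heparan sulfate proteoglycan sdc4.L (-1.62), the ephrin efna4.L (-1.55), the protocadherin pcdh7.L (-1.09) and calponin cnn2.L (-1.56). The pcdh7.L values, 3.07 and 3.15 in Sox17beta caps against 4.12 and 4.29 in uninjected caps, all lay within the control range. The 2 higher probe sets of this group were gamma-tubulin tubg1.L (1.44) and ccdc69.L (2.02).

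Signalling genes that fell numbered 15 probe sets of 14 genes. The kinase gene hunk.L read 5.47 and 5.16 in Sox17beta caps, against 7.97 and 8.07 in uninjected caps (-2.71, adjusted p = 0.00202), and the receptor for platelet-activating factor ptafr.L fell by 2.55. The Kit ligand gene kitlg.L fell by 2.21 with an uneven response, -1.23 in replicate 1 and -3.18 in replicate 2. The Wnt antagonist gene sfrp2.S read 8.11 and 6.6 in Sox17beta caps, against 9.56 and 8.63 in uninjected caps (-1.74, adjusted p = 0.00319). Stress-responsive and immediate early genes gave 7 of the lower probe sets, among them rgcc.S (-2.17), the RNA decay factor zfp36l1.S (-1.85), gadd45g.L (-1.79) and the MAP kinase phosphatase dusp1.L (-1.65). In the endoplasmic reticulum group the unfolded protein response factor xbp1.L read 8.15 and 7.32 in Sox17beta caps, against 9.68 and 10.01 in uninjected caps (-2.11, adjusted p = 0.00922), ckap4.S fell by 2.11 and herpud1.L by 1.29. Of 158 listed secretory pathway and endoplasmic reticulum probe sets, 4 were 2-fold lower (2.53%) and 0 higher, while 7 fell and 1 rose. For comparison, 1.27% of all probe sets were 2-fold lower, 3.56% fell and 1.88% rose.

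The 2-fold probe sets were also counted in whole pathway lists. Only probe sets with a single symbol were matched to the lists, so the 8 changed ones with several symbols are in none of these counts. The lists were drawn up with earlier results of these data known, and are given as counts and medians without a test, against a median log2 difference of 0.04 over all probe sets and shares of 0.633% at least 2-fold higher and 1.27% at least 2-fold lower. Of 61 epidermal probe sets, 22 were 2-fold lower and 0 higher, with a list median of -0.73. In that list 26 fell, where 3.56% of all probe sets did. Of 59 ventral and BMP probe sets, 15 were 2-fold lower and 0 higher, with a median of -0.74, and 33 fell, among them bmp4.S (-1.20), the BMP receptor bmpr1a.S (-0.74) and smad7.L (-0.98). The epidermal and BMP lists share genes such as dlx3, gata2, klf17 and msx1.

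Of 37 endoderm probe sets, 10 were 2-fold higher and 1 lower (sox18.S), with a median of 0.23. Of these 10, the 2 of sox17b.1.S read the injected RNA itself and were the 2 of the list called without the block. The other 8 were those of otx2, gata4.S, eomes.L, foxa1.S, foxa4.S and gata6.L. The Mix family genes in it were not called, with mix1.L at 0.02, mixer.S at 0.21 and bix1.3.L at 0.22. Of 38 organizer probe sets, 8 were 2-fold higher and 1 lower, with a median of 0.29, and 10 rose and 4 fell. The secreted organizer genes chrd.1.S (0.33), nog.L (0.32) and cer1.S (0.31) were not called. The endoderm and organizer lists share otx2 and foxa4. Of 92 neural probe sets, 7 were 2-fold higher and 2 lower (median 0.17), with 11 that rose and 8 that fell, and of 56 mesodermal ones 2 were higher and 4 lower (median 0.10).

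The 36 Nodal and activin probe sets had 0 in either direction, with 5 that fell: 3 of smad7.L, tdgf1.3.L (-1.03) and tgif2.S (-1.24). The 47 muscle and somite probe sets had 0 and no call in either direction at adjusted p under 0.05 in the blocked limma fit. Of 85 Wnt probe sets 1 was 2-fold lower (sfrp2.S), of 47 FGF and tyrosine kinase probe sets 1 (dusp1.L), and of 43 Notch and Hes probe sets 2 (hes4.L and hes7.1.L). Called in the blocked fit were more: 8 Wnt probe sets fell and 1 rose, 5 of the FGF list fell and 0 rose, and 7 of the Notch and Hes list fell and 0 rose. Over all probe sets 3.56% fell and 1.88% rose. Without meeting the rule, 3 probe sets of the FGF receptor genes fgfr4.L and fgfr4.S fell by 1.06 to 1.46. Of 183 ribosomal and translation probe sets, 1 was 2-fold higher (eef1a2.S) and 1 lower (eif4a2.L), with a median of -0.06. Of 264 cytoskeletal probe sets, which include the keratins, 2 were 2-fold higher and 16 lower, and of 129 stress and immune probe sets 5 were higher and 9 lower. Among 20 probe sets of loading genes 3 rose, those of hprt1.L, tbp.L (1.34) and tbp.S (1.2), and the list median was -0.14.

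Mixer, a homeodomain factor also known for inducing endoderm, was measured in the same series against the same uninjected arrays. Since the comparisons share those arrays, the values are set side by side without a measure of likeness. The 98 probe sets higher in Sox17beta caps had a median log2 difference of 0.43 in Mixer caps, and 17 of them were called higher and 0 lower there, where 1.31% of all probe sets were called (0.536% higher, 0.775% lower). The 197 lower probe sets had a median of -0.89 in Mixer caps, with 46 called lower and 1, hes7.1.L, higher. At least 2-fold in both replicates of Mixer caps were 14 of the 98, all higher, where 0.387% of all probe sets were, and 53 of the 197, all lower, where 0.439% were. The direct comparison of Sox17beta with Mixer caps, which called 1.56% of all probe sets (0.555% higher and 1.0% lower with Sox17beta), called 54 of the 98 and 53 of the 197. It uses the Sox17beta arrays that chose the probe sets, so it is not independent of their choice.

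Some gene copies rose with either factor. gata4.S read 6.41 and 7.48 in Sox17beta caps and 7.3 and 8.41 in Mixer caps, against 3.85 and 4.41 in uninjected caps, and was 0.91 lower with Sox17beta than with Mixer (adjusted p = 0.0473). Compared with uninjected caps, foxa1.S was 2.42 higher in Sox17beta caps and 1.67 higher in Mixer caps, a gap of 0.75 (standard error 0.18, adjusted p = 0.124). The gap was 0.14 (0.15, adjusted p = 0.721) for cxcr4.S, which was 1.65 higher in Sox17beta caps and 1.51 higher in Mixer caps. It was -0.76 (0.29, adjusted p = 0.306) for aplnr.L, 1.98 higher in Sox17beta caps and 2.73 higher in Mixer caps. None of these 3 gaps was called. The other copies of gata4 and cxcr4 differed from the copies named here. gata4.L read 5.53 and 5.3 in Sox17beta caps and 8.66 and 8.8 in Mixer caps, against 5.2 and 5.09 in uninjected caps. cxcr4.L was 1.49 lower in Sox17beta than in Mixer caps (-1.49, limma adjusted p = 0.0158).

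Others rose in Sox17beta caps with Mixer values near those of uninjected caps. irx4.L was 3.69 higher in Sox17beta than in Mixer caps (adjusted p = 0.000471), gsc.S 2.73 (0.000471), eomes.L 2.64 (0.000649), dmrta2.S 2.7 (0.00795) and fst.L 1.47 (0.00539). On the lower side the Mixer minus uninjected means were -0.7 for ccne2.L, -0.055 for dynll1.S, -0.295 for ag1.L and -0.64 for azin2.S, none called. Of these, ccne2.L was 1.71 lower in Sox17beta than in Mixer caps (-1.71, 0.0119) and dynll1.S 2.09 lower (-2.09, 0.00834). Likewise ag1.L was 2.55 lower (-2.55, 0.0108) and azin2.S 1.57 lower (-1.57, 0.0051). In contrast asl.L (-0.38, 0.352), slc38a2.L (-0.16, 0.745), dlx5.L (-0.17, 0.698) and sox18.S (0.08, 0.866) did not differ beyond the test between the injected groups.

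**Figure D4:**
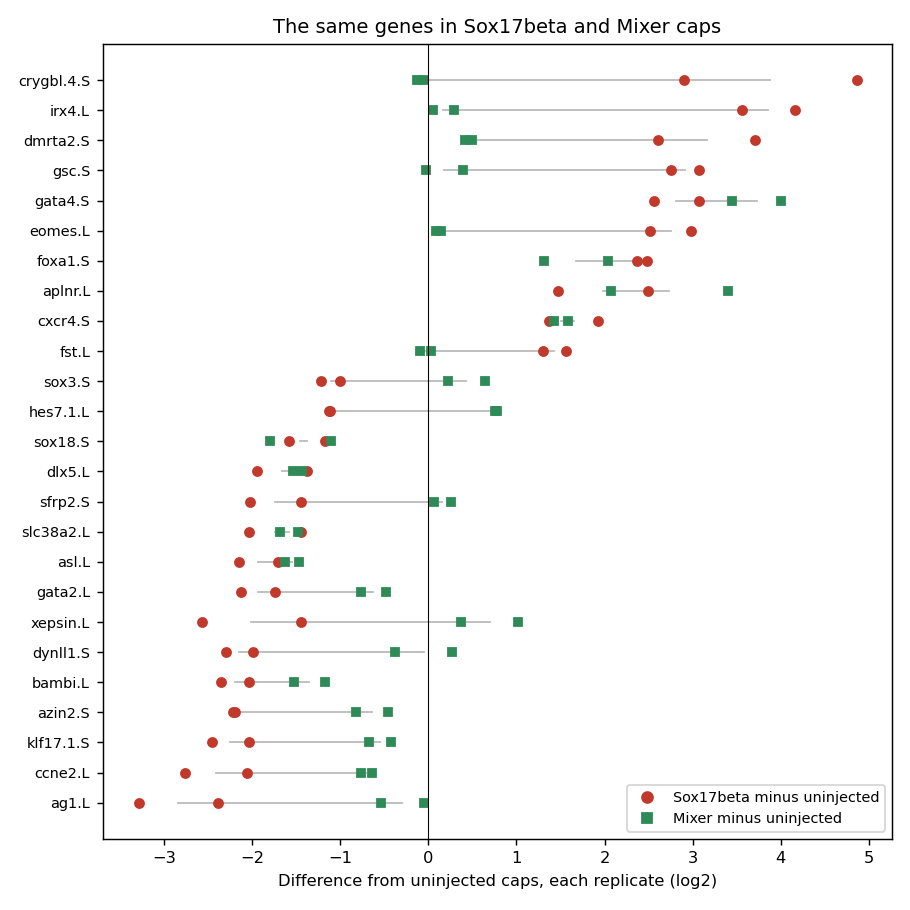
Log2 difference from uninjected caps in each replicate, for Sox17beta caps (red circles) and Mixer caps (green squares), with a line joining the group means. irx4.L, gsc.S, eomes.L and crygbl.4.S lie at 2.52 or more in both replicates of Sox17beta caps with Mixer values near 0, whereas the points of gata4.S, cxcr4.S, asl.L and sox18.S lie on the same side of 0 in both.

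Both copies of a gene could be compared for 56 genes in which at least 1 copy met the rule. The copy means had the same sign in 47 and opposite signs in 9. These 9 were btg1, cfb, cidea, cxcr4, dusp1, gadd45g, kitlg, meis3 and stmn1. In all of them except cxcr4 only 1 copy was called, so the changes given above for the other 8 are those of the named copy alone. In 13 genes both copies met the rule, and in 12 of these they went the same way: up for otx2 and btg4, and down for szl, dlx3, krt12.4, krt70, ag1, id2, ccnd1, cbfa2t2, foxi4.2 and midn. The exception was cxcr4. As cxcr4.S rose by 1.65, cxcr4.L read 8.22 and 7.47 in Sox17beta caps, against 9.59 and 9.45 in uninjected caps (-1.67, limma adjusted p = 0.00561).

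In the other 43 genes 1 copy met the rule. Both copies were called in the same direction in 16 of these, as for bambi (bambi.L by -2.19, bambi.S by -1.37), herpud1 (herpud1.L by -1.29, the other copy by -1.19) and leprot (leprot.L by 1.25, the other copy by 0.86). In 26 of them 1 copy was called, and in gata6 neither. gata4.S rose by 2.81 while gata4.L differed by 0.27 (adjusted p = 0.326), and foxa4.S rose by 1.56 while foxa4.L differed by 0.39 (0.214). The stmn1.S rise of 1.78 stood beside -0.11 for stmn1.L. How far the probes of one copy also read the other is not given in the sources used here. Several probe sets of the same copy were measured for 36 gene copies with a member. In 10 of them every probe set met the rule, and in 7 the probe sets differed in sign or one was at 0, as for atg16l1.L (-1.42 to 0.16) and nfe2.S (-1.69 to 0.08).

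**Figure D5:**
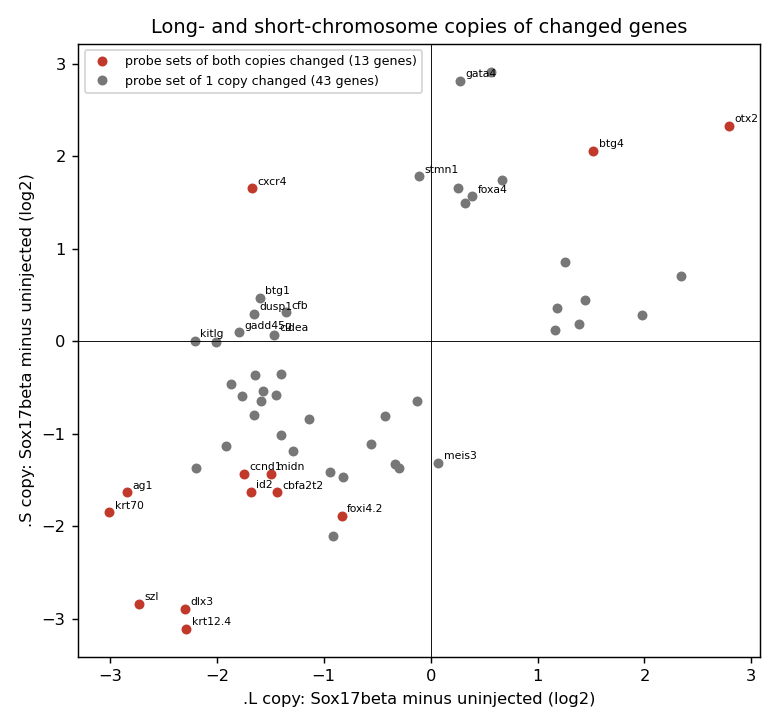
For 56 genes with both copies measured, the mean log2 difference (Sox17beta minus uninjected) of the .L copy on the x axis and of the .S copy on the y axis, with genes in red where both copies met the 2-fold rule. Of the 13 red genes, 12 lie in the quadrants where the copies move together, and cxcr4 lies in the upper left, with the .S copy higher and the .L copy lower.

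The rises started from dimmer signals than the falls. The 98 higher probe sets had a median level of 7.38 in Sox17beta caps and 5.6 in uninjected caps, and 48 of them were at or below the highest control on both uninjected arrays, so their fold is uncertain. The 197 lower probe sets had a median level of 6.92 in Sox17beta caps and 8.73 in uninjected caps, and 39 were at or below the highest control on both Sox17beta arrays. In each direction 4 probe sets were within the control range on all 4 arrays, the higher ones being foxa4.S, lhx1.L, hoxa2.S and slc5a8.1.L. The lower ones were those of pcdh7.L and pygm.S, the dimmer sbk1l.L probe set that met the rule, and an unnamed probe set. The median uninjected level of all probe sets was 6.54.

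Near the limit of 1 on the log2 scale, sox3.S (-1 in replicate 1 and -1.22 in replicate 2) and sdc4.L (-1 and -2.25) were just inside, and tmem45b.L (-0.99 and -1.45) just outside on the lower side. On the higher side an unnamed probe set with 1 and 1.99 was just inside, and another with 0.98 and 2.6 just outside, its mean difference of 1.79 notwithstanding. A further 551 probe sets were called without meeting the 2-fold rule, 195 of them higher and 356 lower.

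Of the 95 probe sets with no symbol, 30 were higher and 65 lower. The largest of them read 10.46 and 11.23 in Sox17beta caps and 4.88 and 4.93 in Mixer caps, against 4.75 and 5.09 in uninjected caps. Its difference of 5.92 was the only one besides sox17b.1.S that passed without the block as well (limma adjusted p = 5.02e-05 with it and 0.0252 without). The next largest read 6.71 and 9.67 in Sox17beta caps, against 4.61 and 4.61 in uninjected caps. The largest unnamed fall read 8.23 and 7.79 in Sox17beta caps, against 10.46 and 11.15 in uninjected caps.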

How the data were processed

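The authors deposited log2 expression values per probe set, 1 column per array, made with RMA per the submitters' processing notes, and no version is given in the sources used here. RMA corrects background, normalizes between arrays and summarises probes, and differences near background are understated. Of 15611 probe sets, 120 controls were left out. Groups and replicate numbers came from the sample titles. Names came from the platform table, updated through RefSeq gene identifiers (9227 matched), with 9304 probe sets holding 1 symbol. No other column was used. limma 3.58.1 in R 4.3.3 fitted group means and the replicate number as a block over all 6 arrays, two-sided, with Benjamini-Hochberg adjustment over all probe sets. The numbers were taken to pair the arrays because deviations from group means of same-numbered arrays correlated at 0.867, 0.732 and 0.776 in the 3 pairs of groups, and because the comparison was defined as paired by number. The fits were tested on simulated data with additive replicate effects, as the blocked fit assumes. That cannot show whether the calls in these data hold. Limits of 2-fold were read with values of exactly 1 included. The 27 Bacillus subtilis controls gave the background level, highest at 5.59 to 5.9 per array. The number of arrays limits the precision. The members, the lists and the naming rule were chosen with earlier results of these data known. The rule gave array values for the largest 12 changes each way, up to 4 genes per list and 3 unnamed probe sets each way, and let any other changed gene be named in its group. Function groups of single genes were assigned after the members were known. Promoter and protein sequences were not analysed here. Figures used matplotlib 3.10.9 in Python 3.11.15.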

Additional observations from a re-analysis of the deposited data

Results flagged for a closer look

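Of the 192 changed probe sets with a single symbol, 10 moved the other way on both Mixer arrays, with the difference between Sox17beta and Mixer caps called in the blocked limma fit. The values that follow are Sox17beta minus Mixer on the log2 scale, and since they contain the Sox17beta arrays that chose the probe sets they are not independent of that choice. The widest gaps were those of the gamma crystallin gene crygbl.4.S, at 3.97 (adjusted p = 0.00984) and 3.19 (0.000471). Its second probe set was 2.31 higher in Sox17beta caps and 0.88 lower in Mixer caps (-0.88) than in uninjected caps. The epidermal protease gene xepsin.L differed by -2.71 (0.00539) and plekhn1.L by -2.81 (0.0108). The Hes repressor gene hes7.1.L differed by -1.90 (0.000575) and was called in both directions, lower by -1.12 in Sox17beta caps and higher by 0.77 in Mixer caps. Its values were 6.93 and 5.52 in Sox17beta caps, 8.81 and 7.43 in Mixer caps and 8.05 and 6.65 in uninjected caps. Both injected groups thus overlapped the uninjected one, and only the pairing separates them from it. The Wnt antagonist gene sfrp2.S differed by -1.90 (0.00431), nsmce4a.L by -1.81 (0.0108), nudt22.L by -1.76 (0.00973), sox3.S by -1.54 (0.0051) and mid1ip1.L by 1.25 (0.00539). A second nsmce4a.L probe set differed by 0.105 between Sox17beta and uninjected caps and was not called. Of the 10, only hes7.1.L was called between Mixer and uninjected caps. For the others the limma adjusted p of that difference was 0.0706 or more, so an opposite response to Mixer was not shown for them. The Mixer difference itself was small for sfrp2.S (0.16), mid1ip1.L (-0.14) and the first crygbl.4.S probe set (-0.09). Over all probe sets the comparison of Sox17beta with Mixer caps called 1.56%.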

How the results depend on the processing

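Against 844 calls (292 higher, 552 lower), the fit without the replicate block called 3, 3 and 0, and that of the 4 arrays of the comparison 0, 0 and 0. With 1 array left out the calls ranged from 0 to 582, the higher ones from 0 to 267 and the lower ones from 0 to 315, with residual degrees of freedom falling and a lone array assumed to vary like the other groups. Quantile normalization, median centring, both filters on dim probe sets and the trended robust prior gave 727 to 926. Of the 295 probe sets changed 2-fold, 293 were called in the main fit and 294 after quantile normalization or median centring. The trended robust prior called 244 of them. Among those it did not call were elavl4.L, otx2.S, dlx3.L and grhl3.L, so their calls depend on the prior. The 295 probe sets became 684, 82 and 45 at limits of 1.5-fold, 3-fold and 4-fold (234, 32 and 25 higher, and 450, 50 and 20 lower), and 491 (183 and 308) by the mean difference. Single pairs gave 336 to 748, with 109 to 332 higher and 227 to 416 lower. Quantile normalization kept 269 of the 295. Of 59 BMP probe sets, 15 to 29 were 2-fold lower by single pairs, against 15 by both. Without the replicate block 1 of the 295 was called for Mixer, against 64, and 4 between Sox17beta and Mixer, against 107. With 1 array left out, the differences of 3 uncalled probe sets crossed 0: sox17a.S ranged from -0.045 to 0.325, gata6.S from -0.045 to 0.415 and sox17a.L from -0.25 to 0.57. The alternatives for the BMP, Mixer and Sox17beta against Mixer counts were chosen after seeing the data. The planned search of promoters for a SOX motif was not run. Fits on fewer arrays have fewer residual degrees of freedom; the fit without the block used all 6 arrays, and the cause of its lost calls was not tested. Signal near the controls limits the folds of rises.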
